A study of Homo sapiens with 2 samples.

Results

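The exon counts of 10 genes were taken from RNA sequencing of Huh-7, a cell line from a human liver cancer. Their proteins recognise splice sites, form the core of the spliceosome or regulate splicing together with it. The files list exons without gene names, so the rows of each gene were chosen by a window of hg19 coordinates and a strand. These windows held 187 of the 239322 exon rows. One library was made from cells kept for 24 h in 0.1% DMSO (control) and one from cells given 0.1 mM BS008 for 24 h, all at passages 15 to 20. BS008 is a derivative of the diuretic amiloride, sought with models of how RNA is bound by snRNP70, U2AF2 and hnRNP I, and RNA was sequenced to see how widely splicing differed in treated cells. With 1 library for each condition, no difference has a replicate check and no test was made. The cell line was not checked by marker genes, since no hg19 annotation was at hand to find their rows.

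The spliceosome removes introns in ordered steps. The U1 snRNP, to which SNRNP70 belongs, pairs with the 5′ splice site, while SF1 binds the branch point and the U2AF heterodimer of U2AF2 and U2AF1 binds the polypyrimidine tract and the AG of the 3′ splice site. The U2 snRNP, with SF3A1 and SF3B1, then replaces SF1 at the branch point, and PRPF8 lies at the centre of the catalytic core. RBM39, RBM5 and SON are splicing regulators that work with this machinery. Several genes of this kind can make transcripts with a poison exon, an exon with an in-frame stop codon that sends the mRNA to nonsense-mediated decay.

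Exons of this kind are shown for SNRNP70 and RBM39. The sequences below are exons of GENCODE release 29 transcripts of the type nonsense-mediated decay, written 5′ to 3′, with the stop codon that ends the reading frame in capitals. They are shown because rows of the files cover exons of these lengths or a longer form of them, and their reads are given further on. Both SNRNP70 exons start at base 1 of a longer exon of 1474 bases in SNRNP70-202, and it is this length that the files list.
SNRNP70-204 exon 8: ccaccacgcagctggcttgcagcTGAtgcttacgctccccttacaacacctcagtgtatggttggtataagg
SNRNP70-209 exon 8: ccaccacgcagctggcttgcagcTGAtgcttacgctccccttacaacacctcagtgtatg
RBM39-212 exon 4: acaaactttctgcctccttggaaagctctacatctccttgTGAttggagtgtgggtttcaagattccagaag

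The windows were checked against exon lengths, which do not depend on the build. In PRPF8, 42 of 43 rows had the lengths of consecutive exons of PRPF8-201 in the right order. The longest unbroken run was 20 rows in SF3B1, 14 in SF3A1, 11 in RBM5, 10 in U2AF2, 9 in SNRNP70, 8 in RBM39 and 5 in SF1. In U2AF1 and SON it was 3 rows only. The U2AF1 window holds 7 rows, of which 3 are longer than most exons (938, 3793 and 1608 bases), and the 67-base alternative exons of this gene have no row of their own. The last of the 13 U2AF2 rows (241 bases) had no exon length of U2AF2, and whether it belongs to U2AF2 or to the next gene, EPN1, was not determined. Rows overlapped a row of the opposite strand in SF3A1 (1), RBM5 (2) and SON (2), and their reads cannot be assigned to a strand if the library did not mark it.

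Reads on exons summed to 55476654 in the control library and 53578432 in the BS008 library. The 10 genes took 177034 of these reads (0.319%) in the control library and 149038 (0.278%) in the BS008 library. At least 10 reads in either library were found on 185 of the 187 rows. Every value is a share of its library, so less of an mRNA and more of other RNA cannot be told apart. Mitochondrial exons held 11.8% of the control reads and 13.1% of the BS008 reads.

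The level of each gene was taken as the median of the deposited RPKM values of its rows, which are scaled to row length and library total. SNRNP70 was the highest of the 10 in both libraries, at 276 RPKM in control cells and 227 in treated ones. SF1 followed with 157 and 141, and U2AF2 with 145 and 93.8. RBM39 had 100.4 in control cells and 118 after BS008. The SF3 subunits lay close together, SF3B1 with 87.9 and 100.6 and SF3A1 with 87.8 and 97.7. PRPF8 had 69.8 and 50.6, U2AF1 46.8 and 44.3, SON 40.8 and 28.95, and RBM5, the lowest, 22.9 and 20.5. U2AF2 was the third highest in control cells and the sixth after BS008, and the order of the other 9 genes was the same in both libraries. Rows of 1 gene spread widely around these medians, from 15.1 to 551 RPKM in U2AF2 in control cells, so neighbours in this order are not separated by the spread among their rows.

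**Figure D1:**
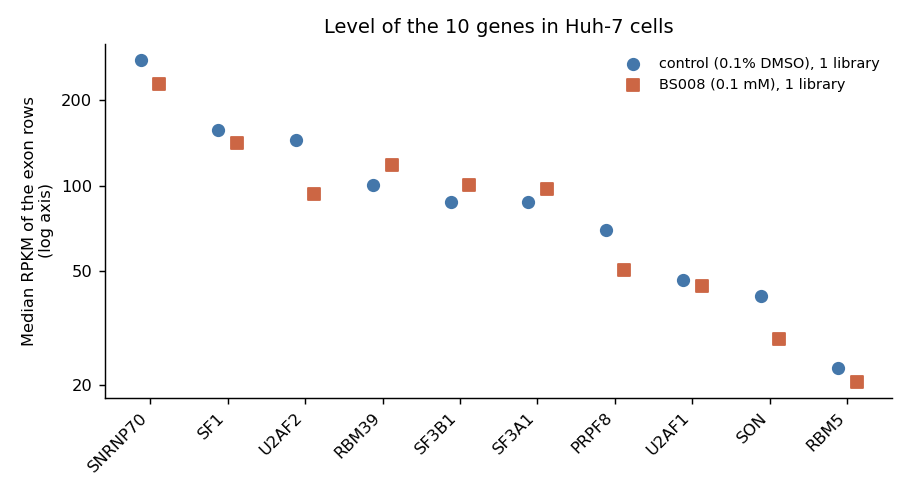
Median RPKM of the exon rows of each gene (log axis), ordered by the control library; circles are control cells and squares BS008-treated cells, 1 library each. The gap between the libraries is widest for U2AF2, at 145 against 93.8 RPKM.

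Counts were next summed over the rows of each gene, scaled to the library total and compared as the log2 of BS008 over control. The genes ranged from -0.80 for U2AF2 to 0.27 for RBM39. U2AF2, SON, SNRNP70 and PRPF8 were lower in BS008-treated cells by more than 0.3 on this scale, and RBM39 was the only gene higher by more than 0.2. The other 5 genes lay between -0.10 and 0.11. In all, 6 genes were below 0 and 4 above it, with a median of -0.06. Brackets give 95% counting intervals (exact binomial) of these ratios, which cover the sampling of reads only and not differences between cultures. Ratios of single rows had a pseudocount of 0.5 CPM, a count scaled to the library total, added in both libraries.

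At the 5′ splice site, SNRNP70, the U1 snRNP protein that contacts the first stem-loop of U1 snRNA (chromosome 19, 49588465 to 49611869, plus strand), had 19664 control reads and 14242 BS008 reads. Its log2 ratio was -0.42 (-0.45 to -0.38), which is 0.750 times the control level. All 11 rows were below 0, from -0.86 to -0.11. The rows differed along the gene. The first row (49588465 to 49588893) had 4383 and 2317 reads (-0.86) and the second, exon 2, had 2999 and 1847 (-0.64), while the 9 rows that followed lay between -0.32 and -0.11. Without the first row the gene stood at -0.31, so the gene's value depended on this row. It held 22.3% (95% Wilson interval 21.7 to 22.9%) of the gene's reads in the control library and 16.3% (15.7 to 16.9%) in the BS008 library.

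The RT-PCR primers listed for snRNP70 are shown because their product lies outside the first rows, where the reads differed most. The forward primer matched exon 5 and the reverse primer exon 7 of SNRNP70-201, with 178 bases from end to end. No capitals are used in them.
SNRNP70 forward primer: tcacaatgatcccaatgctc
SNRNP70 reverse primer: ctcgatgaaggcatagccac
Rows 5 to 7, which have the lengths of exons 5, 6 and 7, together had 3669 control reads and 3067 BS008 reads, which gives -0.21 (-0.28 to -0.14). The stretch read by the primers was lower by less than the gene as a whole, of which it is a part. Without the first row the gene stood at -0.31 (-0.34 to -0.27). That value still includes the stretch, so its interval is not an independent comparison. The stretch was not compared with the remaining rows alone.

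The row of 1474 bases (49605371 to 49606844) has the length and place in order of SNRNP70-202 exon 8, which holds the poison exons printed above. It had 438 control reads and 365 BS008 reads (log2 ratio -0.20). Its share of the gene's reads was 2.23% (2.03 to 2.44%) and 2.56% (2.32 to 2.84%), and against the adjacent rows it was 11.9% (10.9 to 13.0%) and 12.4% (11.2 to 13.6%). Both pairs of intervals overlap. The row does not separate the short exons printed above from the rest of the 1474 bases.

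At the branch point, SF1, which binds this sequence before the U2 snRNP does (chromosome 11, 64532078 to 64546241, minus strand), had 20034 control reads and 18024 BS008 reads. The log2 ratio was -0.10 (-0.13 to -0.07). Of the 13 rows with enough reads, 10 were below 0 and 3 above it, and they spanned only -0.30 to 0.09. The lowest, with a row of 278 bases at the same ratio, was exon 3 (64540902 to 64540977; 1022 and 798 reads) and the highest exon 7 (64536695 to 64536810; 852 and 878). The last row, of 1550 bases, had 4960 and 4904 reads (0.03). One row of 262 bases had 4 and 2 reads and was not compared.

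The subunits of U2AF had different ratios. U2AF2, the large subunit, which binds the polypyrimidine tract (chromosome 19, 56165416 to 56186801, plus strand), had 21382 control reads and 11850 BS008 reads. This was the lowest ratio of the 10 genes, at -0.80 (-0.83 to -0.77) or 0.574 times the control. All 13 rows were below -0.5. The first row (56165416 to 56166519, 1104 bases) went from 1748 to 686 reads, a log2 ratio of -1.27, and was the lowest. No U2AF2 exon of GENCODE release 29 has this length. The rows that were least lower, both at -0.53, were exon 11 and the last row of uncertain gene. Exon 11 (56180810 to 56181058) had 1904 and 1264 reads and the last row 202 and 127. Exon 2 and exon 3, at -0.95 and -0.96, came next after the first row. Without the first row the gene stood at -0.76.

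U2AF1, the small subunit, which contacts the AG of the 3′ splice site (chromosome 21, 44513066 to 44527688, minus strand), had 6241 and 5930 reads, with a ratio of -0.02 (-0.08 to 0.03). Within this even total the rows went both ways. The 4 rows under 500 bases had 3015 control reads and 2408 BS008 reads (-0.27; -0.35 to -0.20). The 3 longer rows had 3226 and 3522 (0.18; 0.11 to 0.25). The lowest row was that of 134 bases (44514765 to 44514898; 773 and 571 reads; -0.37), and beside it lay the highest, the last row of 1608 bases (44513066 to 44514673; 908 and 1086 reads; 0.30). A length of 1608 bases is that of an exon in U2AF1-210, a transcript annotated as retaining an intron, and the row does not separate reads of spliced exons from reads of an intron. GENCODE release 29 also lists U2AF1L4 and U2AF1L5, and how reads that match more than 1 place were counted is not given in the sources used here.

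The U2 snRNP genes were close to even. SF3B1, which clamps the branch point helix (chromosome 2, 198256700 to 198299771, minus strand), had 26377 control reads and 27097 BS008 reads, a log2 ratio of 0.09 (0.07 to 0.11). Of 25 rows, 18 were above 0. The last row (198256700 to 198257185) was the highest, with 901 and 1257 reads (0.52), and exon 24 before it had 1486 and 1898 (0.40). The lowest was the fourth row, of 1744 bases (198283523 to 198285266), with 1375 and 1030 reads (-0.36), a length that no SF3B1 exon of the annotation has. The first 12 rows together stood at -0.02 (-0.06 to 0.03) and the last 12 at 0.14 (0.11 to 0.17).

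SF3A1, another U2 snRNP subunit (chromosome 22, 30727979 to 30752913, minus strand), had 13531 and 14075 reads and a ratio of 0.11 (0.07 to 0.14). Its 16 rows were divided into 9 above and 7 below 0. The last row, of 2706 bases (30727979 to 30730684), had 2026 and 2532 reads (0.37), and without it the gene stood at 0.05. Exon 12 (30733679 to 30733886) was the lowest, with 1519 and 1192 reads (-0.29).

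In the catalytic core, PRPF8 (chromosome 17, 1553924 to 1588176, minus strand) had 32995 control reads and 24357 BS008 reads, the most of the 10 genes in the control library. Its log2 ratio was -0.39 (-0.41 to -0.36), 0.764 times the control. Of 43 rows, 41 were below 0. The rows were lowest around exons 15 to 17, where exon 16 (1579799 to 1580005) went from 935 to 474 reads (-0.89). Exons 15 and 17 stood at -0.84 and -0.76. The last row (1553924 to 1554250) was the highest, with 1047 and 1060 reads (0.07). The first 21 rows gave -0.52 (-0.56 to -0.48) and the last 21 rows -0.31 (-0.34 to -0.28).

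**Figure D2:**
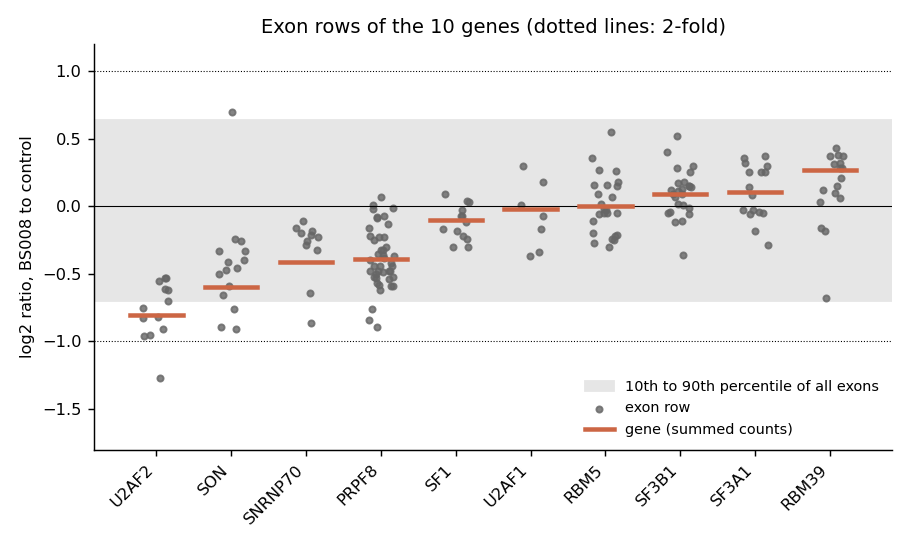
Log2 ratio of BS008 to control (y axis) for each exon row with at least 10 reads in either library, by gene; bars are the ratios of summed counts, the grey band holds the 10th to 90th percentile of all exons (-0.70 to 0.64) and dotted lines mark 2-fold. All rows of U2AF2 and SNRNP70 lie below 0, and 1 row of U2AF2 lies beyond 2-fold.

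Among the regulators, SON, a nuclear speckle protein that supports the splicing of weak introns (chromosome 21, 34915350 to 34949812, plus strand), had 16266 control reads and 10388 BS008 reads. The log2 ratio was -0.60 (-0.63 to -0.56), or 0.661 times the control. The long exon 3 of 5916 bases took most of these reads, with 9861 and 6001 (-0.66), and without it the gene stood at -0.50. Of the 15 rows, 14 were below 0. The lowest was exon 8 (34941277 to 34941393), with 574 and 282 reads (-0.91).

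The remaining SON row went the other way. It is 123 bases long (34929852 to 34929974), lies between exons 4 and 5, and had 126 control reads and 215 BS008 reads (log2 ratio 0.70, or 0.82 without a pseudocount, with an interval of 0.50 to 1.15). The adjacent exons had 938 reads together in control cells and 696 after BS008. The row therefore held 11.8% (10 to 13.9%) of the reads of this stretch in control cells and 23.6% (21 to 26.5%) in the treated library. No SON exon of GENCODE release 29 has this length, and its effect on the reading frame was not determined.

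RBM39, an SR-like protein related to U2AF2 (chromosome 20, 34291532 to 34330193, minus strand), was the gene with the highest ratio, with 16479 control reads and 19140 BS008 reads (0.27; 0.24 to 0.30). Of 17 rows with enough reads, 14 were above 0. The highest was the last row, exon 17 (34291532 to 34292503), with 1743 and 2285 reads (0.43). Rows of 1920 bases (34326890 to 34328809; 2372 and 2975 reads) and 866 bases (34319863 to 34320728; 2154 and 2694 reads) both stood at 0.37, and both have the length of an exon in RBM39 transcripts annotated as retaining an intron. Exons 5 and 6, which follow them, stood at -0.18 and -0.16.

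One RBM39 row has the 72-base length of the poison exon printed above, RBM39-212 exon 4 (34322108 to 34322179), and was taken to be that exon by its length. It had 111 control reads and 57 BS008 reads, a log2 ratio of -0.68 with the pseudocount and -0.91 (-1.40 to -0.44) without it. The gene around it was higher, so its share of the gene's reads was 0.674% (0.560 to 0.810%) in the control library and 0.298% (0.230 to 0.386%) after BS008. Against the adjacent rows the share was 2.39% (1.99 to 2.87%) and 0.995% (0.769 to 1.29%). The intervals do not overlap on either scale, although they rest on few reads. In SNRNP70 the share of the 1474-base row had overlapping intervals. That row does not separate its short poison exons, so the poison exons of these genes cannot be compared. A further row of 89 bases in RBM39 had 0 and 3 reads and was not compared.

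RBM5, which regulates exon choice in apoptosis genes (chromosome 3, 50126368 to 50156390, plus strand), had the fewest reads, 4065 in control cells and 3935 after BS008. Its ratio was 0.00 (-0.06 to 0.07), and the counting of reads alone does not separate it from 0. Row 5 (50137415 to 50137484) lies inside row 6 (50137415 to 50139614) on the same strand. Whether their shared reads were counted in both is not given in the sources used here. With overlapping rows left out the ratio was -0.009. Of 25 rows, 14 were below 0 and 11 above it. The first row had 256 and 203 reads (-0.25) and the last row 242 and 286 (0.26). Exon 11 (50144200 to 50144297) stood at 0.55, with only 37 and 65 reads. Among rows with at least 100 reads, exon 9 (50142510 to 50142575; 128 and 95 reads; -0.30) was the lowest and exon 23 (50154507 to 50154604; 159 and 191 reads; 0.27) the highest. The row of exon 23 overlaps a row of the opposite strand.

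**Figure D3:**
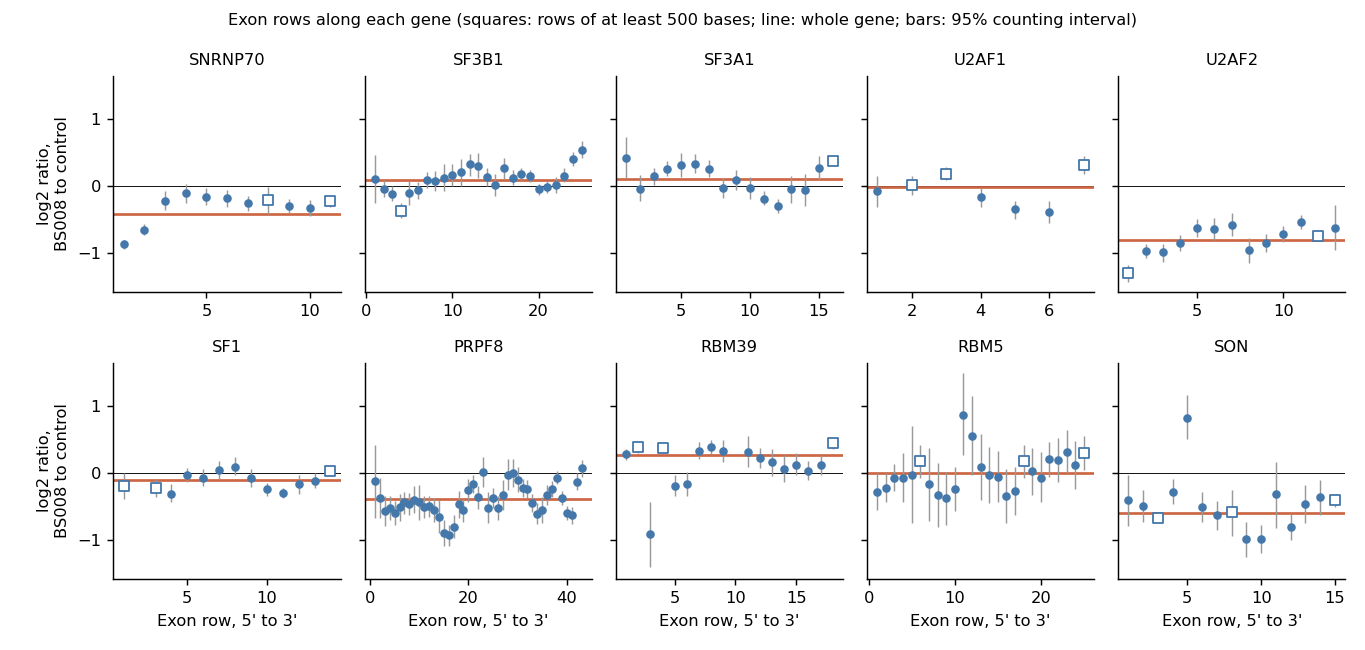
Log2 ratio of BS008 to control (y axis, no pseudocount) for each exon row with at least 10 reads in either library, in 5′ to 3′ order (x axis), 1 panel for each gene; vertical bars are 95% counting intervals, squares are rows of at least 500 bases and the horizontal line is the whole gene. SNRNP70 and U2AF2 are lowest in the first row, and single rows of SON and RBM39 stand apart from their gene.

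Single rows were also read against all exons of the files. Of the 185 rows with enough reads, 1 was lower by 2-fold or more after BS008, the first row of U2AF2, whereas 3.79% of all 131330 exons were. None was at least 2-fold higher, against 3.73% of all exons. At 1.5-fold, 24 rows (13%) were lower, close to the 13.9% of all exons, and 1 row (0.541%) was higher, against 11.5% of all exons. The 24 lower rows were 10 of U2AF2, 6 of PRPF8, 5 of SON, 2 of SNRNP70 and 1 of RBM39, and the higher row was that of 123 bases in SON. The median of the rows was -0.16, and 67% of them were below 0. Over all exons the median was -0.04, and 53.2% were below 0. The values over all exons were not matched for read depth, and rows with few reads can pass these thresholds more easily by counting alone. Whether the 10 genes differ from exons of like depth was not tested. Rows of 1 gene are parts of the same mRNA and are not independent.

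The share of reads that a row held against its nearest neighbours was used to separate single exons from the level of the gene. The neighbours were the nearest rows on either side on the same strand within 10 kb, and a row and its neighbours needed at least 100 reads together in each library. Of the 186 rows that could be compared, 2 changed by at least 10 percentage points (1.08%), whereas 3.13% of all exons did. These were the 123-base row of SON and the last row of U2AF1, which went from 54.0% (51.6 to 56.4%) in control cells to 65.5% (63.2 to 67.8%) after BS008. The 134-base row next to it in U2AF1 is its only neighbour and had 773 and 571 reads. The median absolute change was 1.4 percentage points for the 186 rows and 1.73 for all exons. The values over all exons were not matched for read depth here either. No row changed its share of the reads of its own gene by 10 percentage points, and the first row of SNRNP70, described above, moved the furthest in shares of reads. In shares of the gene's summed RPKM it was the 123-base row of SON that moved the furthest, from 3.08% to 7.76%, and exon 8 of SON came next, with 14.7% and 10.7%.

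**Figure D4:**
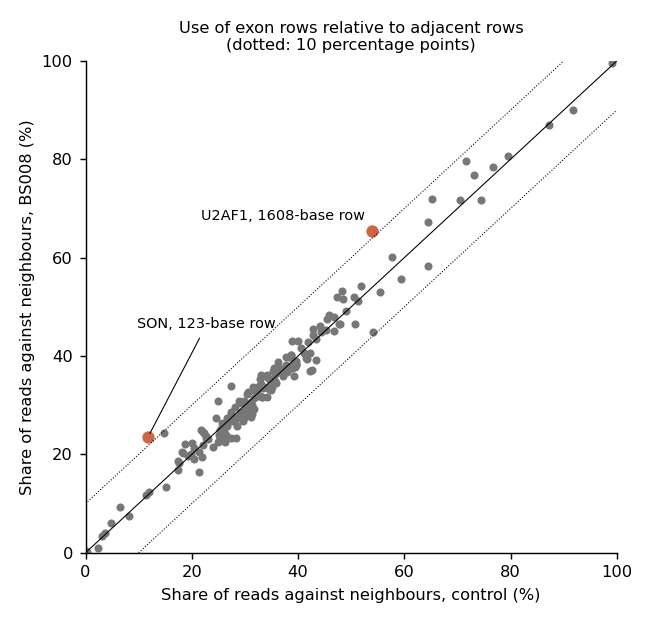
Share of reads that each exon row held against its nearest neighbours in control cells (x axis, %) and in BS008-treated cells (y axis, %), for 186 rows of the 10 genes; dotted lines mark a change of 10 percentage points. The 123-base row of SON (11.8 and 23.6%) and the 1608-base row of U2AF1 (54.0 and 65.5%) lie beyond the upper line.

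The ends of the genes were set side by side after their values had been seen. In all 10 genes the last row stood above the ratio of its gene, by 0.14 in SF1 to 0.45 in PRPF8. In U2AF2 that row is the 241-base row of uncertain gene, and the row before it stood above the gene by 0.05 only. Without a pseudocount the 241-base row stood at -0.62 (-0.95 to -0.29), an interval that includes the gene's -0.80. The last row was also above the first in 8 genes, by 0.63 in SNRNP70 and by 0.74 in U2AF2. The U2AF2 value uses the 241-base row of uncertain gene, and with the row before it the difference was 0.52, less than in SNRNP70. SF3A1 had a first and a last row with like values, at 0.36 and 0.37. Its first row overlaps a row of the opposite strand and had only 166 and 214 reads (interval 0.12 to 0.72). In SON the last row was lower than the first by 0.07. How often last rows stand above their gene or their first row was not counted over other genes. Whether this is particular to the 10 genes was therefore not tested. The last row was longer than the first in 9 genes, all but U2AF2. Over all exons the median log2 ratio was -0.08 for rows under 100 bases, -0.05 for rows of 100 to 200 bases and 0.02 to 0.03 for the longer classes. For the rows of the 10 genes it was -0.13 under 100 bases, -0.23 from 100 to 200, -0.13 from 200 to 500, -0.09 from 500 to 1000 and 0.03 from 1000 bases, which is no steady order by length. The part of row length in the differences within these genes was not tested.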

How the data were processed

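RNA was extracted with Trizol and made into libraries with an Illumina mRNA-seq kit, 1 library for each condition. Per exon, the deposited values are raw read counts without normalization and the authors' RPKM, which recomputing from the counts returned to within 4.7e-06. The submitters' processing notes name the build hg19; the aligner, the counting tool and the annotation are not given in the sources used here. The members and lists were chosen with earlier results of these data known.

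Samples were grouped by their treatment field, since the text of the treatment protocol is the same for both. Counts were divided by the library total. Row ratios used a pseudocount of 0.5 CPM and at least 10 counts in either library, and gene ratios used summed counts without a pseudocount. Rows named are those past 2-fold or 10 percentage points, the highest and lowest row of each gene with at least 100 counts, and the alternative exons; others named were chosen after their values were seen. Shares have 95% Wilson intervals. A count of 0 allows up to 3 counts, which is 5.4e-06% of the control library and 5.6e-06% of the BS008 library. Exon numbers come from row lengths matched in order to GENCODE release 29 transcripts on GRCh38, from which no coordinates were taken, and the printed exons come from its transcript sequences. The planned list of other spliceosome genes was not analysed here, because no annotation of hg19 was at hand. The steps were tested on simulated data. Python 3.11.15, numpy 2.4.6, pandas 2.3.3, scipy 1.17.1 and matplotlib 3.10.9 were used, and TMM factors came from edgeR 4.0.16 in R 4.3.3.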

Additional observations from a re-analysis of the deposited data

How the results depend on the processing

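With 1 library for each condition, neither the spread between cultures nor the effect of leaving out a replicate could be measured, and the intervals cover counting error only. No paired analysis was possible because each condition has 1 library. All values here are log2 ratios of BS008 to control unless stated. The genes kept their direction under every alternative except U2AF1 and RBM5, whose counting intervals include 0. TMM factors shifted all genes by 0.05, to -0.37 for SNRNP70, 0.14 for SF3B1, 0.16 for SF3A1, -0.75 for U2AF2, -0.053 for SF1, -0.34 for PRPF8, 0.32 for RBM39 and -0.55 for SON. Median-of-ratios factors gave -0.38 for SNRNP70, 0.12 for SF3B1, -0.07 for SF1, -0.35 for PRPF8 and 0.30 for RBM39. The median of the exon ratios gave -0.23 for SNRNP70, -0.75 for U2AF2, -0.42 for PRPF8, 0.21 for RBM39 and -0.46 for SON. Without the longest row, SF3A1 stood at 0.055, U2AF1 at -0.094, U2AF2 at -0.76, SF1 at -0.15 and SON at -0.50. Leaving out the first or the last row was chosen after seeing the data. Without the first row, SNRNP70 stood at -0.31 and U2AF2 at -0.76. Without the last row, SNRNP70 stood at -0.46, SF3A1 at 0.055, U2AF1 at -0.089 and SF1 at -0.15. Leaving out mitochondrial exons or overlapping rows kept all 10 genes within their counting intervals. At 1.5-fold in place of 2-fold, 1 row was higher and 24 were lower. The rows with a changed share against neighbours numbered 13 at 5 percentage points and 0 at 20. The largest change in a share of the gene's reads, -6.02 points for the first row of SNRNP70, was -2.23 points as a share of RPKM, which divides reads by row length. On that scale the largest change was another one, 4.68 points for the 123-base row of SON. The causes of the other shifts were not tested.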
